A study of Homo sapiens with 6 samples.

Results

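The Sprouty and Spred genes were followed in RNA sequencing of the MDA-MB-453 line, HER2+ breast cancer cells, after knockdown of *DUSP6*. The 6 genes, *SPRY1*, *SPRY2*, *SPRY4*, *SPRED1*, *SPRED2* and *SPRED3*, were chosen by name for their known function from the 22807 genes of the table. All 6 passed the filter on low values, a mean of at least 1 over the libraries, which kept 12862 genes. With *DUSP6* knockdown, *SPRY4*, *SPRED1* and *SPRY1* were lower, *SPRY2* was higher, and *SPRED2* and *SPRED3* did not pass the test.

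Sprouty and Spred proteins are membrane-associated inhibitors of signaling from receptor tyrosine kinases through RAS to the kinase ERK. Growth factors raise the transcription of several of them through ERK itself, so that they close a negative feedback loop, as does DUSP6, a phosphatase that removes the activating phosphates from ERK. Sprouty proteins act at several levels between receptor and RAF, and Spred proteins carry neurofibromin, the RAS inactivator encoded by *NF1*, to the membrane.

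Both groups consisted of the same parental cells, grown in RPMI medium with fetal bovine serum. One group received scrambled siRNA (labelled Scrambled, genotype WT) and the other *DUSP6* siRNA (labelled DUSP6 Knockdown, genotype DUSP6 KD), with 3 libraries in each, and siRNA transfections in the study used Lipofectamine RNAiMAX. Each group was made with 3 different siRNAs, and the labels do not give the siRNA of a library. The labels do not say whether the libraries of a group came from separate cultures, so the p-values measure only the spread between these libraries. The deposited values are reads relative to a scaled library size. They came from 56542154 to 85729785 reads per scrambled library and 45546981 to 75642792 per knockdown library, so that 1 read is worth a value between 0.0121 and 0.0202.

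*DUSP6* itself, on chromosome 12, had normalized values of 209, 110 and 114 in scrambled replicates 1 to 3 and 39.4, 24.5 and 35.2 in knockdown replicates 1 to 3. The groups did not overlap, and the log2 fold change was -2.05 (SE 0.25, limma adjusted p = 3.09e-04). A gene on the opposite strand covers 28.6% of the *DUSP6* exon sequence, and the counting is not stated to use strand, so reads of both genes cannot be told apart. The cells carried the markers of their line. All 8 markers listed for it passed the filter, and *ERBB2* had a mean of 984 ± 94.3 in scrambled libraries (SD, n = 3). With knockdown 6 of 8 markers of the line were lower, *ERBB2* among them, against 24.7% of all genes tested, and 1 was higher, against 19.7%. Of 8 markers of leukocytes, endothelium, fibroblasts and basal or muscle cells, 7 stayed under a value of 1 in every library. The exception, *COL1A1*, had 92.2 ± 12.2 in scrambled and 173 ± 16.7 in knockdown libraries, while the fibroblast markers *COL1A2* and *LUM* did not exceed 0.134 and 0.0122. In bulk RNA, fewer cells of a type and less RNA per cell cannot be told apart.

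*SPRY4* (Entrez gene 81848, chr5:142310430-142325021 on GRCh38) encodes a Sprouty protein whose transcript follows ERK activity in many cells. Its normalized values were 115, 121 and 101 in scrambled replicates 1 to 3 and 51.7, 43.1 and 45.3 in knockdown replicates 1 to 3, from 2558 to 8387 reads. All knockdown libraries lay below all scrambled libraries, and the highest knockdown value was 0.512 times the lowest scrambled one. The mean went from 112 ± 10.3 to 46.7 ± 4.49 (SD, n = 3), or 41.5% of the scrambled level. On the log2(value + 1) scale the change was -1.25 (SE 0.11, 95% confidence interval -1.49 to -1.01, limma adjusted p = 4.68e-05), and 309 of the 12862 genes tested had a lower fold change. The exact permutation test gave p = 0.1, two-sided, the smallest that 3 libraries against 3 allow, and the same holds for every gene below whose groups did not overlap.

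*SPRY1* (Entrez gene 10252, chr4:123396795-123403760), another Sprouty inhibitor of growth factor signaling, had values of 33.9, 37.9 and 36.2 in scrambled replicates 1 to 3 and 30.4, 23.8 and 28.6 in knockdown replicates 1 to 3. The groups were close but did not overlap, with knockdown replicate 1 at 0.897 of the lowest scrambled value. The mean of 27.6 ± 3.39 was 76.7% of the scrambled mean of 36.0 ± 2.00 (SD, n = 3). Its log2 fold change of -0.38 (SE 0.11, interval -0.63 to -0.12, limma adjusted p = 0.0247) was smaller than that of *SPRY4*. This call was lost on leaving out scrambled replicate 2 (limma adjusted p = 0.0591), knockdown replicate 2 (limma adjusted p = 0.0968, log2 fold change -0.28) or knockdown replicate 3 (limma adjusted p = 0.0642). It was also lost when the libraries were scaled by their total reads (-0.15, limma adjusted p = 0.319).

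*SPRY2* (Entrez gene 10253, chr13:80335976-80341126), a Sprouty gene that can also prolong EGF receptor signaling by binding the ubiquitin ligase CBL, went the other way. Its values were 2.71, 2.49 and 2.99 in scrambled replicates 1 to 3 and 7.08, 5.87 and 6.18 in knockdown replicates 1 to 3. All knockdown libraries lay above all scrambled libraries, the lowest of them at a ratio of 1.96 to the highest scrambled one. These low values still rest on 130 to 480 reads per library. The mean rose from 2.73 ± 0.250 to 6.38 ± 0.627 (SD, n = 3), a 2.34-fold increase of the value. The log2 fold change was 0.98 (SE 0.12, interval 0.72 to 1.24, limma adjusted p = 2.52e-04) with a pseudocount of 1, which shrinks the change of a gene this low, and 1.25 by edgeR on the recovered reads. Of the genes tested, 360 had a higher fold change.

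**Figure D1:**
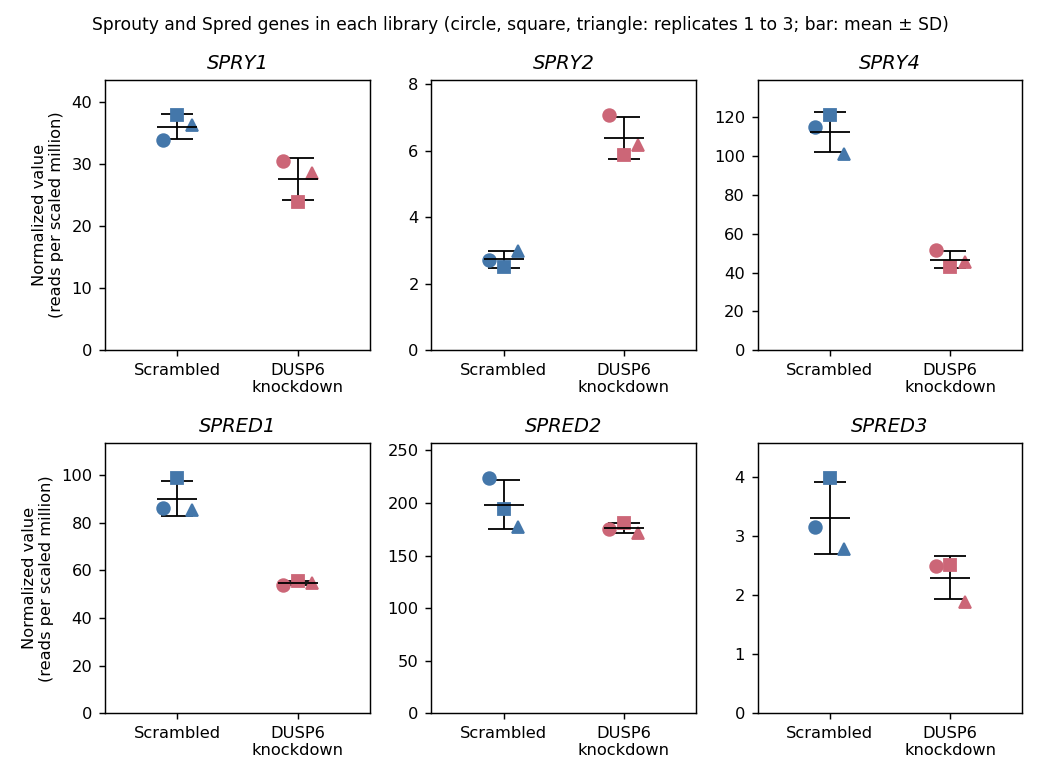
Normalized value (reads relative to the scaled library size, linear axes from 0) of each Sprouty and Spred gene in scrambled and DUSP6 knockdown libraries, with replicates 1 to 3 as circle, square and triangle and the mean ± SD as bars. The knockdown libraries lie below all scrambled libraries for SPRY1, SPRY4, SPRED1 and SPRED3 and above them for SPRY2, while the groups of SPRED2 overlap.

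The sequences before the start sites of the 3 genes with the largest changes are shown because the same knockdown left *SPRY4* and *SPRED1* lower and *SPRY2* higher. They are from RefSeq on GRCh38.p14, read on the strand of the gene and without any annotated exon. For *SPRED1* and for the most upstream of 3 *SPRY2* start sites they are the 250 bases before the start. For *SPRY4* the stretch runs from -250 to -171, since exons of other transcripts cover the rest of that window. The *SPRY4* start site used, at 142324247, is internal, as the gene on the minus strand begins at 142325021. Its stretch therefore lies inside the gene and not upstream of it. Capitals mark matches on either strand to GGGCGG, the GC box of Sp and KLF factors, CCGGAA, the core of sites for ETS factors, and TGACG, the short form of the cAMP response element.
SPRY4, chr5:142324418-142324497, minus strand: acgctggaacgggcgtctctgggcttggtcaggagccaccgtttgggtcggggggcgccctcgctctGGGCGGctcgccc
SPRY2, chr13:80341127-80341376, minus strand: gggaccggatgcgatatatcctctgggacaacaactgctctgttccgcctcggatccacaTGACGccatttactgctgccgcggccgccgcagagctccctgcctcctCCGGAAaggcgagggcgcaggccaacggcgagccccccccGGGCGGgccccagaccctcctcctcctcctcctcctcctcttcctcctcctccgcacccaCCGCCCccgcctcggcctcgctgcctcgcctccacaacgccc
SPRED1, chr15:38252586-38252835, plus strand: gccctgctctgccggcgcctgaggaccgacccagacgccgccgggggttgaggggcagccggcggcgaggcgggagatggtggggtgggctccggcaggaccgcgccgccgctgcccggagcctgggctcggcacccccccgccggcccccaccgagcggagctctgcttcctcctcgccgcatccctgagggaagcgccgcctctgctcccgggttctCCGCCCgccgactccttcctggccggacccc

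The share of G and C was 65.6% for the whole *SPRY4* window, 70.4% for *SPRY2* and 78.4% for *SPRED1*. Over all windows of this length the median was 58.0% and the third quartile 68.0%, so *SPRY4* lay under that quartile. The windows of the other *SPRY2* start sites (62.4% and 41.2%) held none of the sequences searched. The *SPRY2* stretch held 1 CCGGAA, 1 TGACG and 2 GC boxes, the *SPRED1* stretch held 1 GC box, and the *SPRY4* stretch held 1 GC box, with 1 TGACG in the exon-covered remainder. RefSeq gave 11 windows for the 6 genes. CCGGAA lay in 2 of these 11, TGACG in 2 and GGGCGG in 5, against 14.5%, 21.2% and 42.6% of all 35116 promoter windows of the same length. TGANTCA, the AP-1 site, lay in 1 of 11 (6.57% of all). The full cAMP response element TGACGTCA, which contains TGACG (1.65% of all), the interferon response element core of a pair of GAAA with NN between them (3.02%), TTTGGCGC, an E2F site (0.550%), and the CArG box bound by serum response factor (1.16%) lay in 0 of 11. A match of letters is a description of the sequence and not a bound site.

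*SPRED1* (Entrez gene 161742, chr15:38252836-38357249), which brings neurofibromin to the membrane, changed with the smallest standard error of the 6 genes. Its values were 86.3, 98.6 and 85.3 in scrambled replicates 1 to 3 and 54.1, 55.4 and 54.8 in knockdown replicates 1 to 3. The knockdown libraries were almost level with each other, and the groups did not overlap. The mean fell from 90.1 ± 7.42 to 54.7 ± 0.658 (SD, n = 3), 60.8% of the scrambled level, a log2 fold change of -0.71 (SE 0.09, interval -0.91 to -0.50, limma adjusted p = 3.96e-04).

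*SPRED2* (Entrez gene 200734, chr2:65307175-65432599), the Spred gene with the highest level in these cells, had values of 223, 195 and 177 in scrambled replicates 1 to 3 and 175, 181 and 172 in knockdown replicates 1 to 3. Knockdown replicate 2 lay above scrambled replicate 3, so the groups overlapped. The means were 198 ± 23.5 and 176 ± 4.63 (SD, n = 3). The log2 fold change was -0.16 (SE 0.10, interval -0.39 to 0.07, limma adjusted p = 0.216), and its sign turned with the scaling, to 0.0052 under quantile normalization and 0.065 under scaling by total reads. Without scrambled replicate 3, the difference passed the test (-0.24, limma adjusted p = 0.0418).

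*SPRED3* (Entrez gene 399473, chr19:38388697-38399587), the weakest inhibitor of the Spred group, was near the bottom of what was tested. It had values of 3.15, 3.99 and 2.80 in scrambled replicates 1 to 3 and 2.51, 2.52 and 1.88 in knockdown replicates 1 to 3, from 122 to 232 reads. The groups did not overlap, with means of 3.31 ± 0.610 and 2.30 ± 0.363 (SD, n = 3). The log2 fold change of -0.38 (SE 0.14, interval -0.70 to -0.06) missed the threshold with a limma adjusted p of 0.0533. Among other settings, it passed without scrambled replicate 3 (limma adjusted p = 0.0249), under quantile normalization (-0.51, limma adjusted p = 0.0167) and without a trend in eBayes (limma adjusted p = 0.0444). It did not pass by edgeR (adjusted p = 0.0767).

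In all, 3 of the 6 genes were called lower (limma adjusted p under 0.05), against 24.7% of all genes tested, and 1 of 6 was higher, against 19.7%. With so wide a response in all genes, 44.5% of them called in either direction, these counts do not set the family apart. Groups without overlap were found for 4 lower and 1 higher gene, against 31.1% and 26.7% of all genes, or 57.8% in either direction. The median log2 fold change of the 6 genes was -0.38, that of all genes -0.01, and the 10th to 90th percentile range of all genes ran from -0.66 to 0.55. *SPRY4*, *SPRED1* and *SPRY2* lay outside that range. A call with a log2 fold change under -1, as for *SPRY4*, was found for 4.22% of all genes tested, and one with a log2 fold change over 1 for 2.67%. *SPRY2* was under that limit with the pseudocount of 1 and over it by edgeR. Without scrambled replicate 3, 5 of the 6 genes were lower, against 27.8% of all genes. Without scrambled replicate 2, knockdown replicate 2 or knockdown replicate 3, 2 of the 6 were lower, against 24.8%, 18.1% and 17.9%.

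**Figure D2:**
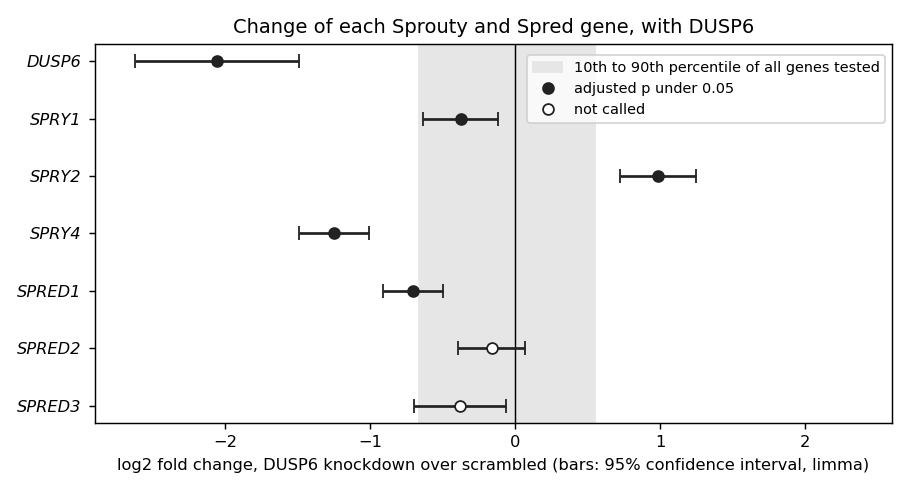
Fold change of DUSP6 and of each Sprouty and Spred gene on the log2(value + 1) scale, DUSP6 knockdown over scrambled, with limma's 95% confidence interval as bars, filled points for an adjusted p under 0.05 and open points for genes not called. The grey band spans the 10th to 90th percentile of all genes tested, -0.66 to 0.55, and SPRY4 at -1.25, SPRED1 at -0.71 and SPRY2 at 0.98 lie outside it. Under scaling by total reads or quantile normalization the point of SPRED2 moves to the right of 0.

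The scaling of the libraries bears on small changes here, since the factors in the deposited values separated the groups, with 0.881 to 0.968 in scrambled and 1.08 to 1.09 in knockdown libraries. Scaling by total reads in their place, a choice added after the values had been seen, moved the median of all genes from -0.01 to 0.20 on the log2 scale. The calls went from 3179 lower and 2540 higher to 1800 lower and 4777 higher, or 14.0% and 37.1% of all genes tested, against which the counts under this scaling below are to be read. Under it *SPRY4* still fell by 1.02 and *SPRED1* by 0.48 on the log2 scale, and *SPRY2* rose by 1.17. These 3 genes passed the test under every alternative that tested them. *SPRY2* was under the filter of a mean value of at least 10.

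Levels can be compared between genes only per length, here as the normalized value per kb of exon sequence. The length joins all GENCODE exons of a gene, whereas the reads were assigned to RefSeq gene models. The order of the genes and their shares depend on that choice. In scrambled libraries *SPRED2* was highest at 36.0 ± 4.27 per kb, followed by *SPRY4* at 17.2 ± 1.58, *SPRED1* at 11.6 ± 0.958 and *SPRY1* at 9.08 ± 0.506 (SD, n = 3). *SPRY2*, at 0.849 ± 0.0777, and *SPRED3*, at 0.565 ± 0.104, came last. No neighbours in this order overlapped between libraries. In knockdown libraries *SPRED2* remained first at 32.0 ± 0.841 per kb, but *SPRY4* at 7.12 ± 0.685, *SPRED1* at 7.06 ± 0.0849 and *SPRY1* at 6.96 ± 0.856 did not differ beyond their spread. *SPRY2* stood at 1.98 ± 0.195 and *SPRED3* at 0.393 ± 0.0619.

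The make-up of the family within a library does not depend on a factor that scales the whole library, as both TMM and total reads do, although quantile normalization can change it. The Sprouty level per kb was summed over *SPRY1*, *SPRY2* and *SPRY4* only. Of it, *SPRY4* made up 63.3% ± 2.45 in scrambled and 44.4% ± 1.28 in knockdown libraries (SD, n = 3), *SPRY1* 33.6% ± 2.09 and 43.3% ± 1.63, and *SPRY2* 3.16% ± 0.481 and 12.4% ± 0.346. None of these shares overlapped between the groups. The ratio of *SPRY4* to *SPRY2* per kb was 20.8, 23.9 and 16.6 in scrambled replicates 1 to 3 and 3.58, 3.60 and 3.59 in knockdown replicates 1 to 3. That ratio varied among scrambled libraries and was nearly the same in all knockdown libraries. The *SPRY2* values of the knockdown libraries rest on 350, 480 and 400 reads. Counting error at such numbers exceeds the spread of the knockdown ratios, so their closeness is a description only. Of the Spred level, *SPRED2* made up 74.6% ± 2.70 and then 81.1% ± 0.209, and *SPRED1* 24.2% ± 2.55 and then 17.9% ± 0.342.

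Summed per kb, the Sprouty genes had 27.1 ± 1.68 in scrambled and 16.1 ± 1.68 in knockdown libraries, and the Spred genes 48.2 ± 4.35 and 39.4 ± 0.942 (SD, n = 3). The groups did not overlap for either sum. With the libraries scaled by total reads, the Sprouty sum still did not overlap (25.0 ± 1.47 and 17.4 ± 1.85), whereas the Spred sum did (44.4 ± 1.98 and 42.7 ± 0.983). The Spred share of the summed level of the 6 genes chosen here went from 64.0% ± 1.74 to 71.1% ± 2.47, without overlap.

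**Figure D3:**
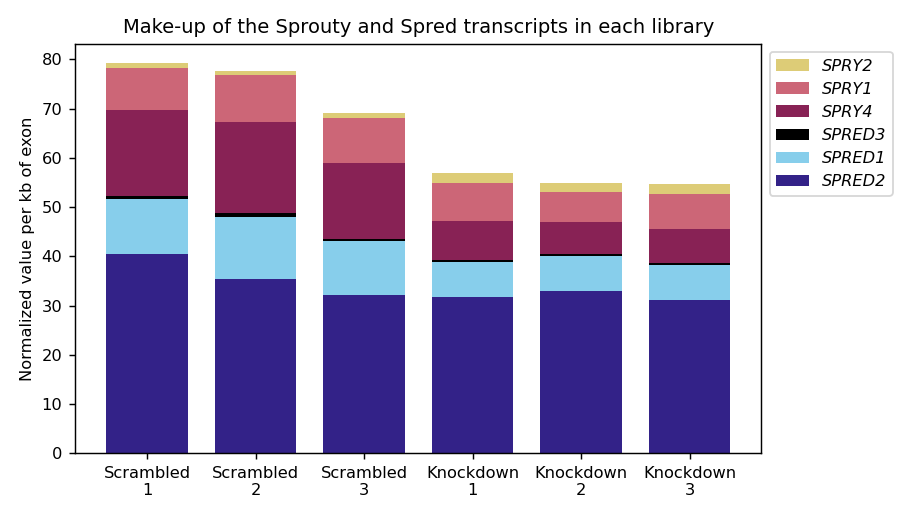
Normalized value per kb of exon sequence, stacked over the 6 Sprouty and Spred genes, in each scrambled and DUSP6 knockdown library. SPRED2, at the bottom, is the largest block in every library, and the SPRY4 block shrinks from 17.2 to 7.12 per kb on average while the SPRY2 block at the top grows from 0.849 to 1.98.

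Within the knockdown group, replicate 2 had the lowest *DUSP6* value (24.5) and also the lowest values of *SPRY4* (43.1), *SPRY1* (23.8) and *SPRY2* (5.87). Knockdown replicate 1, with the highest *DUSP6* value (39.4), had the highest of these 3 genes. Of the Spred genes, replicate 2 was the highest knockdown library for *SPRED1* (55.4), *SPRED2* (181) and *SPRED3* (2.52, beside 2.51 in replicate 1). The order of *DUSP6* was fully reversed only for *SPRED1*, whose knockdown values hardly differed (54.1 to 55.4). Replicate 3 was the lowest knockdown library for *SPRED2* (172) and *SPRED3* (1.88). In the scrambled group the order of the Sprouty genes was not seen, since replicate 1 had by far the most *DUSP6* (209). Replicate 2 had the most *SPRY4* (121) and *SPRY1* (37.9). Over 3 libraries a group these orders are a description only.

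The genes whose pattern over the 6 libraries was nearest to each Sprouty or Spred gene were taken by the root mean square difference of centred log2 values. For *SPRY4* they were *SYT7* (0.042), *LINC01132* (0.047) and *TBL1XR1* (0.049), and 45 tested genes lay within 0.1. For *SPRY2* they included *RNF31* (0.063) and *FGFR1* (0.080), with 11 genes within 0.1, the fewest of the family. *SPRED1* was nearest to *WWC3* (0.032), *C15orf62* (0.038) and *TIAM1* (0.042), among 159 genes within 0.1. The nearest to *SPRY1* were *THBD*, *DKFZP586I1420* and *PKDREJ*, at 0.031 to 0.041. *SPRED2*, which hardly varied, had 798 genes within 0.1, led by *FGFR1OP2*, *ELK1* and *USP1* at 0.023 to 0.025. *SPRED3* was nearest to *POLR2L*, *ABHD17A* and *THRA* at 0.065 to 0.066.

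Receptor tyrosine kinases lie upstream of the Sprouty and Spred proteins. Of 14 listed, 11 were tested, 3 were lower and 4 higher, against 24.7% and 19.7% of all genes. Their median log2 fold change was -0.16, and scaling by total reads gave 2 lower and 4 higher. *ERBB2*, which encodes HER2, fell by 0.99 on the log2 scale (limma adjusted p = 1.59e-04), and *ERBB3*, the HER2 partner receptor, fell by 0.66 (limma adjusted p = 8.77e-04). *FGFR1*, a fibroblast growth factor receptor, rose by 0.94 (limma adjusted p = 1.31e-04), and *ERBB4*, another member of the EGF receptor family, by 0.62 (limma adjusted p = 0.00724). *FGFR4*, at 298 per kb in scrambled libraries against 2.42 for *FGFR1*, fell by 0.60 (limma adjusted p = 0.0132). *FGFR3*, 1 of the 4 higher receptors, rose by 0.35 (limma adjusted p = 0.0449) but lay near the floor. Its means were 0.810 in scrambled and 1.32 in knockdown libraries. It passed the filter on low values only through the knockdown group, so little can be drawn from its call. *FGFR2* (-0.56) did not pass. The last 3 receptors were singled out after their values were seen. *RET* (log2 fold change -0.43) and *IGF1R* (-0.16) did not pass the test.

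Of 17 tested genes for proteins that Sprouty and Spred proteins bind or that act on them, 3 were lower and 2 higher. The shares over all genes were 24.7% and 19.7%. The median of the partners was -0.04, and 2 were lower and 7 higher with scaling by total reads. *MKNK1*, a kinase downstream of ERK that can phosphorylate SPRY2, fell by 0.67 (limma adjusted p = 6.69e-04), and *TESK1*, a kinase that binds Sprouty proteins, by 0.59 (limma adjusted p = 0.00143). *PTPN1*, a tyrosine phosphatase, rose by 0.50 (limma adjusted p = 0.0443), and *CBLB*, a ubiquitin ligase of the CBL family, by 0.40 (limma adjusted p = 0.0465). Both of these rises lost their call with no filter and on leaving out scrambled replicate 1 or any of the knockdown replicates, and 1 partner was higher without scrambled replicate 3. The adaptor *GRB2* (-0.08) and the phosphatase *PTPN11* (-0.14) did not pass. Nor did *NF1*, the Spred partner, with a mean of 249 ± 6.08 in scrambled and 253 ± 9.13 in knockdown libraries (SD, n = 3), a log2 fold change of 0.03 (interval -0.16 to 0.21, limma adjusted p = 0.813). *NF1* was singled out after its value was seen.

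In the core of the pathway from adaptors to ERK, 6 of 18 genes were lower and 2 higher, against 24.7% and 19.7% of all genes. The share called in either direction, 44.4%, was that of all genes, 44.5%. The median of the core genes was -0.06, and 4 were lower and 7 higher with scaling by total reads. *GAB1*, a docking protein below receptors, fell by 0.93 (limma adjusted p = 1.29e-04), *HRAS* by 0.79 (limma adjusted p = 2.46e-04) and *MAPK3*, which encodes ERK1, by 0.75 (limma adjusted p = 1.95e-04). The scaffold *KSR1* rose by 0.74 (limma adjusted p = 7.16e-04). The adaptor *SHC1* (0.15) did not pass.

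Of 14 tested genes that ERK signaling is known to induce, 6 were lower, against 24.7% of all genes, and 2 were higher, against 19.7%. Their median log2 fold change was -0.49, and 5 were lower and 5 higher with scaling by total reads. The higher ones, named after their values were seen, were the ephrin receptor *EPHA4* at 1.01 (limma adjusted p = 1.11e-04) and *PHLDA1*, an immediate-early gene, at 0.48 (limma adjusted p = 0.0262), and without knockdown replicate 1 or 3 only 1 gene was higher. *EGR1*, an immediate-early transcription factor, fell by 1.90 (limma adjusted p = 0.0104), and its values ran from 123 to 221 in scrambled and from 18.7 to 88.0 in knockdown libraries. *DUSP5* fell by 1.45 (limma adjusted p = 1.03e-04) and *DUSP4* by 1.17 (limma adjusted p = 3.70e-04), both phosphatases of ERK. *ETV4*, an ETS factor, fell by 1.18 (limma adjusted p = 0.0368), with 11.6 in scrambled replicate 1 and 2.45 and 3.64 in the others. *MCL1*, an inhibitor of apoptosis (0.41), and the immediate-early gene *IER2* (-0.56) did not pass.

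Other inhibitors of the pathway moved both ways. Of 14 tested, 5 were lower and 4 higher, against 24.7% and 19.7% of all genes, with a median of 0.03. With scaling by total reads, 3 were lower and 5 higher. *ERRFI1*, an inhibitor of EGF receptor kinases, fell by 0.76 (limma adjusted p = 0.0120). Of the RAS GTPase activating genes in this list, *DAB2IP* fell by 0.77 on the log2 scale (limma adjusted p = 5.63e-04) and *RASAL2* by 0.71 (limma adjusted p = 2.64e-04). *RASA2* rose by 0.65 (limma adjusted p = 0.00234). The phosphatases *DUSP10* (-0.29) and *DUSP7* (0.01) did not pass. No exon of a Sprouty or Spred gene overlapped another annotated gene, but of the genes named beside them from the lists, those that shared more than 5% of their exon sequence with a single other gene are uncertain. They were *ERBB2* (5.53%), *KSR1* (5.38%), *MCL1* (5.27%), *SHC1* (7.72%), *PHLDA1* (9.35%) and *IER2* (30.7%).

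**Figure D4:**
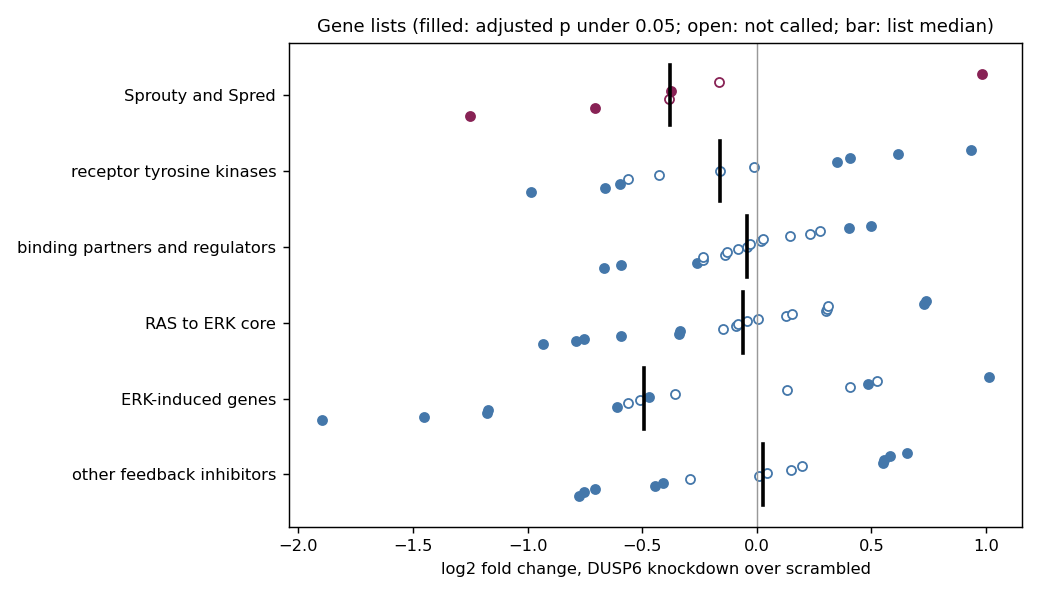
Each point is the log2 fold change of 1 tested gene, DUSP6 knockdown over scrambled, by list, filled for a limma adjusted p under 0.05 and open otherwise, with the list median as a bar. The Sprouty and Spred genes have a median of -0.38 and span -1.25 to 0.98, and the ERK-induced genes have the lowest median, -0.49, whereas those of the receptors, partners, core and other inhibitors lie between -0.16 and 0.03. Scaling by total reads moves the median of all genes to 0.20.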

How the data were processed

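RNA of 6 libraries of MDA-MB-453 cells, 3 with scrambled and 3 with *DUSP6* siRNA, was sequenced from a stranded kit. The authors used Rsubread 2.0.0 for alignment to hg38 and, at its default settings, for assigning reads to RefSeq gene models. They deposited a table of normalized signal values, linear and not logged, with 1 column for each library. The submitters' processing notes also name edgeR. In every library 100% of the deposited values were whole multiples of 1 read (tolerance 1e-06 reads), which gave back the reads, and the scaling was that of the TMM method in edgeR, to within 2.44e-15. Groups and replicate numbers were taken from the labels.

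The values were taken as log2(value + 1), and 12862 of the 22807 genes, those whose values averaged 1 or more, entered a limma 3.58.1 fit (R 4.3.3, eBayes allowing for a trend). P-values were adjusted by Benjamini and Hochberg's method over all of them, with calls at an adjusted p under 0.05. Fold changes on this scale understate those of low genes. Single genes were also compared with a two-sided exact permutation test. The tests rest on the spread between libraries, which includes the counting error. That error is largest for *SPRY2* and *SPRED3*, the family's genes with the fewest reads. The fits were tested on simulated data. Exon lengths and overlaps came from GENCODE release 44, positions and promoters from RefSeq, which held 22359 of the gene IDs. Of the rows, 349 had no symbol.

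The 6 genes and the lists beside them were chosen with earlier results of these data known. Named were the 6 genes and *DUSP6*, of each other list up to 4 called genes with the largest change and up to 2 uncalled genes with the highest mean, and the 3 genes nearest in pattern to each Sprouty or Spred gene. A few genes that this rule names are not reported here. The marker lists were used to check the cells. As alternatives, the pseudocount was set to 0.1, the filter was dropped or raised to 10, the libraries were rescaled by the median of ratios or by quantiles, the replicate number entered as a block, eBayes was run without a trend, the recovered reads were tested with edgeR 4.0.16 (quasi-likelihood), and each library was left out in turn. Rescaling to total reads was added after the values had been seen. The study's other assays were not analysed here.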

Additional observations from a re-analysis of the deposited data

How the results depend on the processing

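*SPRY4*, *SPRED1*, *SPRY2* and *DUSP6* kept their direction and their call under every alternative that tested them, and the sign of *SPRED2* turned with quantile normalization (0.0052) and total-read scaling (0.065). The cause of these changes was not tested. Counts moved by over 1.5 times as follows. Under the filter at 10, 1639 genes were higher, 0 of the Sprouty and Spred genes were higher because *SPRY2* was not tested, and 1 core, 1 ERK-induced and 2 other inhibitor genes were higher. Of the binding partners, 0 were higher with no filter, 1 with median-of-ratios scaling, 1 without a trend, 4 with quantile normalization and 7 with total reads. Quantile normalization gave 4 higher core genes and 2 higher receptors, whereas its counts over all genes, 2958 higher and 2887 lower, did not move that far. Total reads gave 4777 higher and 1800 lower genes, 7 higher core genes, 5 higher ERK-induced genes and 3 lower other inhibitors. Leaving out 1 library at a time, 1574 (without knockdown replicate 2) to 3183 genes were higher, 2 to 5 Sprouty and Spred genes lower, 2 to 5 binding partners lower and 0 to 2 higher, 2 to 5 core genes higher, 2 to 5 receptors lower and 2 to 3 higher, 1 to 2 ERK-induced genes higher and 3 to 5 other inhibitors lower.

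The replicate numbers did not pair the libraries. The correlations of same-numbered libraries' deviations from their group means were 0.0050, 0.0868 and -0.0764, and not every library correlated best with its own number. With the number as a replicate block, 3096 genes were lower and 2495 higher, 5 receptors were lower, 4 ERK-induced genes were higher, and *SPRED3* passed the test (limma adjusted p = 0.0383). The other 5 Sprouty and Spred calls were the same. Of the family, *SPRED3* and *SPRY2* had the fewest reads and are the most limited by depth.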
